A study of Homo sapiens with 4 samples.

Results

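The 38 genes described here are known targets and regulators of the amino acid response driven by the transcription factor ATF4. The comparison asks how these genes stand after siRNA against KIF26B. They were taken as a list of named genes of the pathway, with no measured value in the rule but with earlier results of these data known, and all 38 have a row among the 58735 genes of the series. The RNA came from HCT116, an established human colorectal cancer line, transfected for 48 h with a control siRNA (2 libraries) or with siRNA against the kinesin KIF26B (2 libraries). Both groups therefore share the line and the transfection, and they differ in the siRNA. The labels number the replicates but name neither separate cultures nor which KIF26B siRNA went into which library, so p-values measure the spread between these libraries only.

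ATF4 is the main effector of the integrated stress response. When uncharged tRNA, unfolded protein, heme deficiency or double-stranded RNA activates a kinase of the translation factor eIF2, most translation slows while the ATF4 open reading frame is translated more. ATF4 then binds composite C/EBP-ATF response elements with a C/EBP partner and raises genes that take up, make and charge amino acids. ATF4 output is therefore set largely at the level of protein, which RNA sequencing does not measure.

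Elements of this kind are shown first because several of the genes below carry them. The core letters TGATGNAA were searched on both strands in the RefSeq promoter windows of GRCh38.p14, from 250 bases before to 50 bases after each start. Of the 32 listed genes with a window, 13 (40.6%) held the letters, against 4.46% of all 27305 genes with a window. The share was 2.36% of the 9601 tested genes with a window, and 3.62% of all 35116 single windows. The stricter TGATGCAA, one of the strings that TGATGNAA covers, was in 9 of the 32, against 0.635% of those tested genes. ALDH1L2, NUPR1, PSPH, SHMT2, SLC7A11 and YARS1 had no window. The genes were listed as ATF4 targets to begin with, so these shares describe the list. GARS1, MARS1 and SLC1A4 are among the genes that held the letters but whose sequences are not shown. Of these, SLC1A4 lay below both controls in both KIF26B siRNA libraries. The sequences of 9 genes follow, 5′ to 3′ on the strand where the core reads TGATG, with the core in capitals.
ASNS, chr7:97872458-97872487, minus strand: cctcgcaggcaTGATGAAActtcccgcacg
CHAC1, chr15:40953251-40953280, minus strand: cctggcaggagTGATGCAAcggcaggggag
AARS1, chr16:70289675-70289704, plus strand: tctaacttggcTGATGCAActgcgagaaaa
CARS1, chr11:3057407-3057436, plus strand: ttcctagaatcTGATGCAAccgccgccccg
SLC7A1, chr13:29595663-29595692, minus strand: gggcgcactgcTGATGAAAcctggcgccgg
SLC1A5, chr19:46784893-46784922, minus strand: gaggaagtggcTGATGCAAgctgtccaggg
NARS1, chr18:57621804-57621833, minus strand: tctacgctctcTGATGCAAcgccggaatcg
CEBPG, chr19:33374060-33374089, plus strand: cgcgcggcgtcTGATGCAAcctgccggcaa
IARS1, chr9:92293692-92293721, plus strand: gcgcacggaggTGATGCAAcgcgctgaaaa
The first 4 belong to genes that were higher mainly in 1 KIF26B siRNA library. Of these, AARS1 and CARS1 also lay above both controls in the other. The next 3 belong to genes that were higher in both KIF26B siRNA libraries by more like amounts. CEBPG was higher in 1 of these libraries, by less than the first 4, and lower in the other. IARS1 lay above both controls in both, but by little. Along each gene the core began 68 bases before the start in ASNS, 209 in CHAC1, 187 in AARS1, 97 in SLC1A5, 42 in CEBPG, 13 in IARS1 and 2 in CARS1. In SLC7A1 and NARS1 it lay just inside the transcript, at bases 8 and 15. A match of letters is not a measured binding site.

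The libraries differed little in depth, with 18714486 to 24234720 whole reads recovered from the FPKM values (fragments per kilobase of transcript, scaled for library depth), and the mitochondrial genes took 6.998% and 7.01% of the reads in the controls, 9.83% in the library labelled KIF26B siRNA replicate 1 and 7.89% in the library labelled KIF26B siRNA replicate 2. KIF26B itself was weakly detected, at 0.110 and 0.205 FPKM (31 and 73 reads) in the control libraries. It stood at 0.140 FPKM (43 reads) in the library labelled KIF26B siRNA replicate 1, between the controls, and at 0.0307 FPKM (8 reads) in the library labelled KIF26B siRNA replicate 2, below both. Against the pooled controls its read rate was 0.857-fold (95% interval 0.587 to 1.23) in the former and 0.189-fold (0.0793 to 0.386) in the latter. These exact intervals, here and for the read rates given later, cover counting error only. KIF26B was thus lower than control in the library labelled replicate 2 and not detectably so in the library labelled replicate 1. With both libraries of each group, a limma-voom fit to the reads did not call it (log2 fold change -1.13 ± 0.66, adjusted p = 0.559). The 2 KIF26B siRNA libraries also differed from each other more than the controls did. They did so by 15.9 times the squared difference that counting noise gives, against 2.25 times for the control pair. The summed level of 6 epithelial markers was 834 to 839 FPKM in the controls and 639 to 642 FPKM in the KIF26B siRNA libraries. EPCAM, CDH1, KRT8 and KRT18 were high in every library and CDX2 was at 2.32 to 3.44 FPKM, whereas the intestinal VIL1 was near 0. Of these markers KRT8 (log2 fold change -0.43 ± 0.11) and KRT18 (-0.51 ± 0.11) were lower in both KIF26B siRNA libraries at an unadjusted p below 0.05. Of 6 markers of other cell types, only COL1A1 passed the low-value filter. Their summed level was 7.20 to 7.48 FPKM in the controls and 4.92 and 8.80 FPKM in the libraries labelled replicates 1 and 2, nearly all of it COL1A1, with CD3E at 0 throughout. The part of these differences in the results was not tested.

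Most of the 33 measurable ATF4 response genes lay above control in the library labelled replicate 2. In the library labelled replicate 1, 20 of the 33 lay above control, mostly by smaller margins. A gene was tested where its mean was at least 1 FPKM, which 33 of the 38 and 14523 genes in all passed. The median gene of the 33 differed from the mean of both controls by 0.57 on the log2(FPKM + 1) scale in the library labelled replicate 2, where the median of all genes tested was -0.0046. In the library labelled replicate 1 the corresponding medians were 0.055 and -0.020. In the library labelled replicate 2, 31 of the 33 (93.9%) lay above the control mean, as did 49.5% of all genes tested, and in the library labelled replicate 1 the share was 60.6%, beside 47.6% of all genes. The library labelled replicate 2 lay above the other for 28 of the 33 (84.8%), compared with 52.7% of all genes. The control libraries lay close together for these genes, with a median gap of 0.041 and a widest gap of 0.33, for TRIB3.

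Beyond a 2-fold difference from control, measured on the same log2 scale, 8 of the 33 were higher in the library labelled replicate 2: ATF4, DDIT3, TRIB3, ASNS, PCK2, SLC7A11, AARS1 and STC2. Of all genes tested, 2.77% were as far above control there and 1.62% as far below, and none of the 33 was as far below. CHAC1 and CARS1 fell short on this scale, though their FPKM in that library were 2.32 and 2.15 times the control mean. In the library labelled replicate 1 none of the 33 passed 2-fold on this scale in either direction. Of all genes, 1.42% were higher and 1.83% lower by that much. TRIB3 stood at 2.01 times the mean control FPKM in that library. Both KIF26B siRNA libraries lay above both controls for 16 of the 33 (48.5%, background 24.9% of all genes) and below both for DDIT4 alone (background 27.8%). In the further lists of targets, synthetases and folate enzymes, given below, 43.8% to 50% of the genes tested so lay above both controls.

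**Figure D1:**
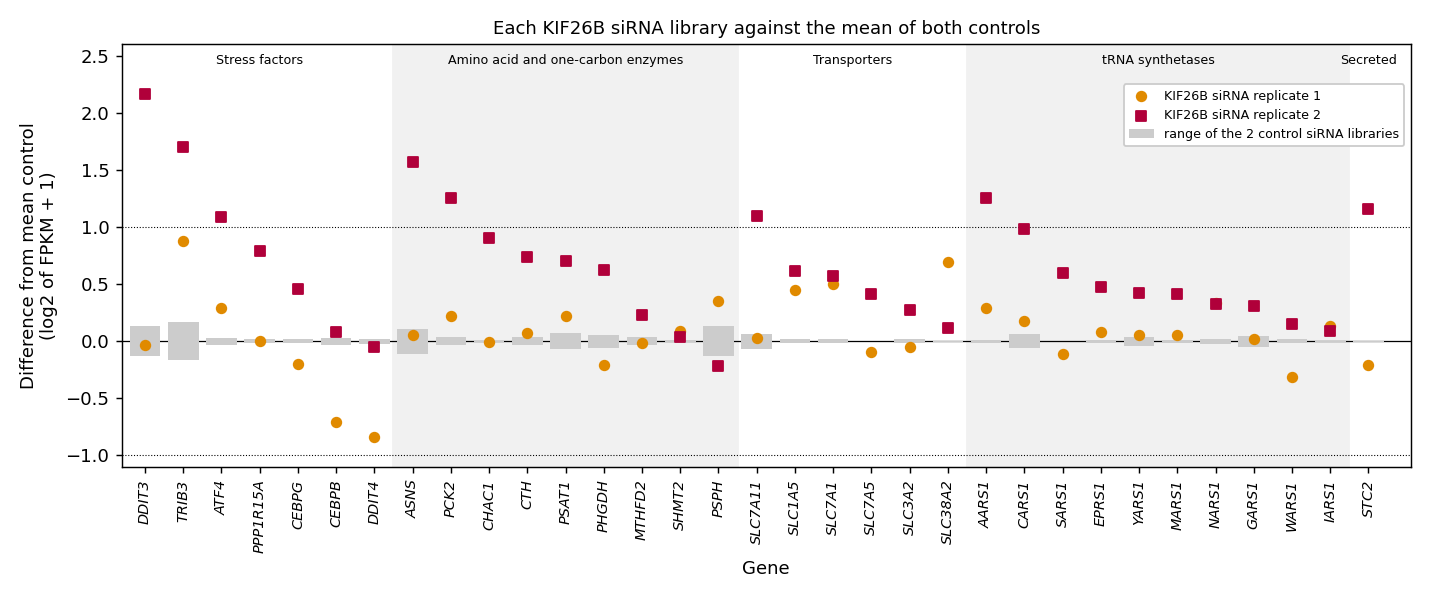
Difference of each KIF26B siRNA library from the mean of both control libraries, in log2 of FPKM + 1, for the 33 genes tested, ordered by role and by the difference in the library labelled replicate 2; grey bars span the 2 controls and dotted lines mark a 2-fold difference. Squares (replicate 2) lie above 1 for 8 genes, and circles (replicate 1) lie between -0.84 and 0.88.

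The comparison of the groups, with both libraries of each, was made with limma, and it called few of these genes. At an unadjusted p below 0.05, TRIB3, SLC7A1, SLC1A5 and NARS1 were higher (4 of 33, 12.1%), against 7.74% of all genes tested that were higher at this threshold. None of the 33 was lower, where 8.68% of all genes were. With a log2 fold change beyond 1 required as well, TRIB3 remained, in a background of 0.813% higher and 0.606% lower. After Benjamini-Hochberg adjustment over all 14523 genes no gene passed 0.05 (0% of all genes), the smallest adjusted p being 0.242, although 2385 genes had an unadjusted p below 0.05. The limma-voom fit to the recovered reads of the same genes gave no adjusted call, and it called 4 of the 33 and 17.9% of all genes at the unadjusted threshold. Fitted to all 34637 genes with reads and no filter, limma-voom called 10 of the 38, all higher, beside 5.55% of all genes higher. There 48 genes passed the adjusted threshold and none of the 38 did. The 6 further calls were ATF4, PSAT1, PCK2, SLC38A2, AARS1 and CARS1. All 10 called genes had passed the 1 FPKM filter. The 5.55% also covers genes below that filter, so the shares are not matched for level. The median log2 fold change of the 33 was 0.33, and that of all genes was -0.013.

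The calls rested on which libraries entered. Without the library labelled replicate 1, 25 of the 33 were higher at an unadjusted p below 0.05, beside 22.9% of all genes. In that fit 19 of the 33 and 17.3% of all genes passed the adjusted threshold, with the lone library assumed to vary as little as the controls. Without the library labelled replicate 2, 7 were higher (17.5% of all genes) and 4 lower (22.4% of all genes), and no gene passed adjustment. Without control replicate 1 no call was left among the 33, and without control replicate 2 there was 1, while the share of all genes called, in either direction, went from 16.4% to 3.61% and 3.44%. An exact permutation test of 2 against 2 libraries cannot give a p below 0.333.

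Among the transcription factors and regulators, the widest differences in the library labelled replicate 2 were in DDIT3, TRIB3 and ATF4. ATF4 was measured at 69.5 and 72.5 FPKM in the control libraries, at 86.9 FPKM in the library labelled replicate 1 and at 152 FPKM in the library labelled replicate 2. Its read rate was 1.22-fold (1.18 to 1.26) and 2.14-fold (2.07 to 2.21) that of the pooled controls, so both libraries lay above both controls but by unlike amounts. The fitted log2 fold change was 0.69 ± 0.30 (SE; unadjusted p = 0.0863, adjusted p = 0.357).

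DDIT3 encodes CHOP, a partner of ATF4 that is linked to cell death under prolonged stress. Its level was 5.69 and 4.56 FPKM in the controls, 4.94 FPKM in the library labelled replicate 1 and 26.4 FPKM in the library labelled replicate 2. The read rate of the latter was 5.21-fold that of the controls (4.53 to 6.01), the widest difference of the list, while the former lay between the controls. The group comparison gave 1.06 ± 0.79 (adjusted p = 0.544). On the GRCh37 annotation 27.2% of the DDIT3 exon length overlaps MARS1 on the opposite strand, and whether reads were counted by strand is not stated, so reads of the pair cannot be told apart there.

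TRIB3, a pseudokinase that feeds back on ATF4 and CHOP, was the only one of the stress regulators past the unadjusted threshold. It stood at 3.77 and 5.00 FPKM in the controls and at 8.82 and 16.3 FPKM in the libraries labelled replicates 1 and 2, without overlap. Read rates were 1.98-fold (1.77 to 2.21) and 3.67-fold (3.32 to 4.05) those of the controls. The log2 fold change was 1.29 ± 0.33 (unadjusted p = 0.0177, adjusted p = 0.254), and without control replicate 1 it was 1.12 with an unadjusted p of 0.0535.

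PPP1R15A (GADD34), which directs a phosphatase to eIF2 and ends the response, was at 17.3, 17.7 and 17.5 FPKM in the controls and the library labelled replicate 1, and at 31.0 FPKM in the library labelled replicate 2. CEBPG, a dimer partner of ATF4, was at 11.9 and 12.2 FPKM in the controls, 10.3 FPKM in the library labelled replicate 1 and 16.8 FPKM in the library labelled replicate 2. Both genes were thus above control only in the library labelled replicate 2. A different order held for CEBPB, another C/EBP partner, with 47.6 and 49.8 FPKM in the controls, 29.3 FPKM in the library labelled replicate 1 and 51.6 FPKM in the library labelled replicate 2. DDIT4 (REDD1), an inhibitor of mTORC1 that several stresses induce, was at 135 and 139 FPKM in the controls and at 76.1 and 132 FPKM in the libraries labelled replicates 1 and 2. These 2 genes were low in the library labelled replicate 1 and close to control in the other. The group comparison did not call any of the 4 (adjusted p from 0.503 for DDIT4 to 0.825 for CEBPG). NUPR1, a small stress-induced chromatin protein, did not exceed 0.0412 FPKM.

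**Figure D2:**
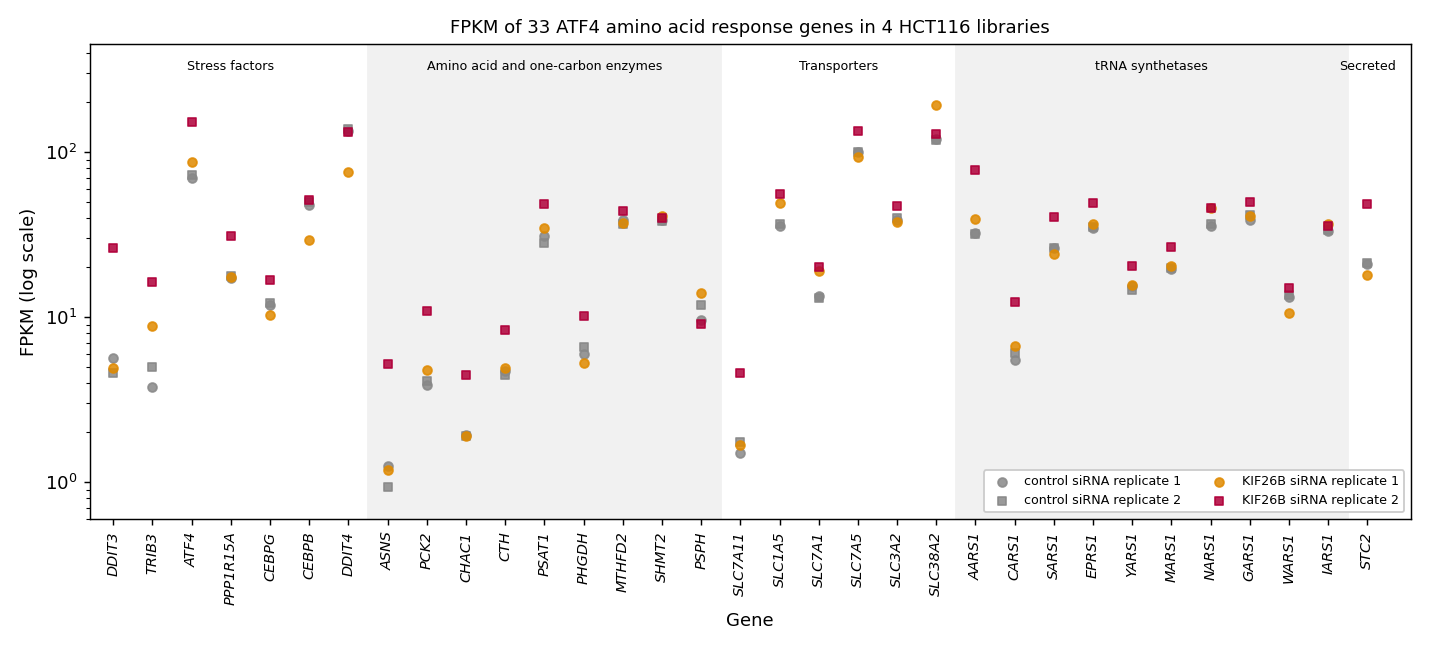
FPKM on a log scale for each of the 33 genes tested in the 4 libraries, grouped by role (grey, control siRNA; orange, KIF26B siRNA replicate 1; red, KIF26B siRNA replicate 2; circles and squares, replicates 1 and 2). The red squares of DDIT3, ASNS, SLC7A11 and STC2 stand apart from the other 3 points, whereas for SLC38A2, DDIT4 and CEBPB it is the orange circle that stands apart.

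The enzymes of amino acid and 1-carbon metabolism were mostly higher in the library labelled replicate 2, with 8 of the 9 tested above the control mean there and a median difference of 0.70, against 0.073 in the library labelled replicate 1. None of the 9 passed the unadjusted threshold in the group comparison. ASNS, asparagine synthetase and a standard readout of ATF4, was at 1.26 and 0.937 FPKM in the controls, 1.18 FPKM in the library labelled replicate 1 and 5.22 FPKM in the library labelled replicate 2. Its read rate in the latter was 4.83-fold that of the controls (4.09 to 5.73) and in the former 1.09-fold (0.860 to 1.38), an interval that includes 1. The group value was 0.81 ± 0.55 (adjusted p = 0.507). Of the ASNS exon length 49.3% is shared with an unnamed noncoding RNA on the same strand, itself below 0.4 FPKM, so the gene's level is uncertain.

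PCK2, the mitochondrial phosphoenolpyruvate carboxykinase, followed the same order, with 3.87 and 4.09 FPKM in the controls, 4.805 FPKM in the library labelled replicate 1 and 10.8 FPKM in the library labelled replicate 2 (2.72-fold, 2.46 to 3.004). CHAC1, which degrades glutathione, was at 1.93 and 1.91 FPKM in the controls, 1.91 FPKM in the library labelled replicate 1 and 4.46 FPKM in the library labelled replicate 2 (2.33-fold, 1.87 to 2.89). For CHAC1 the first 3 libraries were nearly equal. CTH, the cystathionine gamma-lyase that makes cysteine, was at 4.75, 4.48 and 4.91 FPKM in those 3 libraries and at 8.37 FPKM in the library labelled replicate 2.

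The 3 enzymes of serine synthesis did not move together. PHGDH, the first step, was at 5.98 and 6.55 FPKM in the controls, 5.27 FPKM in the library labelled replicate 1 and 10.2 FPKM in the library labelled replicate 2. PSAT1, the second, was at 31.0 and 28.2 FPKM in the controls and at 34.7 and 48.6 FPKM in the libraries labelled replicates 1 and 2 (log2 fold change 0.46 ± 0.21, adjusted p = 0.359). PSPH, the last, was at 9.65 and 11.8 FPKM in the controls, 13.9 FPKM in the library labelled replicate 1 and 9.04 FPKM in the library labelled replicate 2, the only one of the 33 besides DDIT4 that was below the control mean there. Its pseudogene PSPHP1 was listed at 15.5 to 19.5 FPKM, so reads may be split between the pair. SHMT2, which moves the 1-carbon unit of serine to folate in mitochondria, ranged from 38.4 to 41.2 FPKM over the 4 libraries. MTHFD2, the next mitochondrial folate enzyme, was at 38.6, 36.8 and 37.2 FPKM and reached 44.3 FPKM in the library labelled replicate 2. The mitochondrial folate enzymes of the list thus differed from control by little, at most 0.23 on the log2 scale. ALDH1L2 (up to 0.543 FPKM) was too low to test, as was CBS, which had 0, 0, 1 and 2 reads and whose reads cannot be told from those of its copy CBSL.

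Of the 6 amino acid transporters tested, SLC7A1, SLC1A5 and SLC38A2 (50%, against 24.9% of all genes) lay above both controls in both KIF26B siRNA libraries. SLC7A1, which carries arginine and lysine, was at 13.4 and 13.0 FPKM in the controls and at 19.1 and 20.1 FPKM in the libraries labelled replicates 1 and 2 (log2 fold change 0.54 ± 0.11, unadjusted p = 0.00838, adjusted p = 0.242). SLC1A5, a glutamine carrier, was at 35.6 and 36.5 FPKM in the controls and at 49.5 and 55.8 FPKM there (log2 fold change 0.53 ± 0.12, unadjusted p = 0.0126, adjusted p = 0.248). In contrast to DDIT3 or ASNS, the 2 KIF26B siRNA libraries were close to each other for SLC7A1 and SLC1A5. Read rates were 1.45- and 1.53-fold for SLC7A1 and 1.37- and 1.55-fold for SLC1A5. Both calls were lost without control replicate 1 or control replicate 2. In those fits the log2 fold changes were 0.55 and 0.52 for SLC7A1 and 0.52 and 0.55 for SLC1A5. Of the SLC1A5 exon length 23.4% overlaps a noncoding RNA on the opposite strand that was at or near 0.

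SLC7A11, the cystine importer of system xc-, was at 1.51 and 1.74 FPKM in the controls, 1.67 FPKM in the library labelled replicate 1 and 4.59 FPKM in the library labelled replicate 2 (2.80-fold, 2.53 to 3.11). SLC38A2 (SNAT2), a carrier of small neutral amino acids that rises on starvation, was higher mainly in the library labelled replicate 1. It was at 119 and 119 FPKM in the controls, 193 FPKM in the library labelled replicate 1 and 129 FPKM in the library labelled replicate 2. Read rates were 1.62-fold (1.60 to 1.65) and 1.09-fold (1.07 to 1.11) those of the controls, so both libraries lay above both controls. The widest difference of SLC7A11 was thus in one library and that of SLC38A2 in the other. SLC7A5 (LAT1), the importer of large neutral amino acids, was at 100.4 and 101 FPKM in the controls, 93.9 FPKM in the library labelled replicate 1 and 135 FPKM in the library labelled replicate 2. SLC3A2 (4F2hc), the heavy chain that SLC7A5 and SLC7A11 both need, was at 38.6, 39.7, 37.8 and 47.4 FPKM in the same order. The heavy chain and LAT1 were above both controls only in the library labelled replicate 2, and by less than SLC7A11. SLC1A4, a carrier of alanine, serine and cysteine, had 1.12 and 1.06 FPKM in the controls and 0.715 and 0.957 FPKM in the libraries labelled replicates 1 and 2, a mean just under the filter.

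The 10 cytosolic tRNA synthetases, which charge tRNA with amino acids, were all above the control mean in the library labelled replicate 2, with differences from 0.086 (IARS1) to 1.25 (AARS1) and a median of 0.42. In the library labelled replicate 1 the median was 0.068. Both KIF26B siRNA libraries lay above both controls for 7 of them (70%), beside 24.9% of all genes, and below both for none. Of synthetases outside the list, 5 of 10 other cytosolic (50%) and 8 of 17 mitochondrial ones (47.1%) were above both controls in both libraries. Among those, 2 (20%) and 3 (17.6%) were below both, beside 27.8% of all genes. AARS1, for alanine, was at 32.4 and 31.8 FPKM in the controls, 39.4 FPKM in the library labelled replicate 1 and 77.7 FPKM in the library labelled replicate 2, with read rates of 1.23-fold (1.18 to 1.28) and 2.42-fold (2.34 to 2.51). CARS1, for cysteine, was at 5.48, 6.07, 6.65 and 12.4 FPKM in that order. These 2 synthetases showed the widest differences of the 10, and neither passed the unadjusted threshold (limma, adjusted p = 0.375 and 0.417).

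NARS1, for asparagine, was the only synthetase of the 10 past the unadjusted threshold. It was at 35.5 and 36.7 FPKM in the controls and at 45.9 and 45.5 FPKM in the libraries labelled replicates 1 and 2 (log2 fold change 0.33 ± 0.11, unadjusted p = 0.0380, adjusted p = 0.288). The difference was small but alike in both libraries. The call was lost with a pseudocount of 0.1 (limma, unadjusted p = 0.0529) and with scaling by total recovered reads (unadjusted p = 0.0639). The call was lost as well with the replicate number as a block (limma, unadjusted p = 0.115). It was also lost without control replicate 1 (log2 fold change 0.31) or control replicate 2 (0.35), as were the calls of SLC7A1 and SLC1A5. SARS1 (serine) was at 26.3, 26.2 and 24.3 FPKM in the controls and the library labelled replicate 1 and at 40.4 FPKM in the library labelled replicate 2. WARS1 (tryptophan), which interferon also induces, was at 13.2, 13.6, 10.6 and 15.0 FPKM in the same order. Both were below the controls in the library labelled replicate 1 and above them in the other.

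EPRS1 (glutamate and proline) went from 34.5 and 35.2 FPKM in the controls to 36.9 and 48.9 FPKM in the libraries labelled replicates 1 and 2. MARS1 (methionine) had 19.5, 19.9, 20.5 and 26.6 FPKM, and YARS1 (tyrosine) had 15.5, 14.7, 15.7 and 20.5 FPKM. These 3 shared a like difference of 0.41 to 0.48 in the library labelled replicate 2. GARS1 (glycine) had 38.8, 41.6, 40.8 and 50.1 FPKM, and IARS1 (isoleucine) had 33.4, 33.6, 36.9 and 35.6 FPKM. IARS1 was the least different of the 10 in the library labelled replicate 2.

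Of the secreted and surface proteins, STC2, a secreted glycoprotein induced under endoplasmic reticulum stress, was at 21.0 and 21.2 FPKM in the controls, 18.1 FPKM in the library labelled replicate 1 and 48.3 FPKM in the library labelled replicate 2. Its read rate was 0.858-fold (0.818 to 0.900) and 2.29-fold (2.20 to 2.37) that of the controls, so the 2 KIF26B siRNA libraries lay on opposite sides of them. The lipoprotein receptor VLDLR did not exceed 0.120 FPKM.

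**Figure D3:**
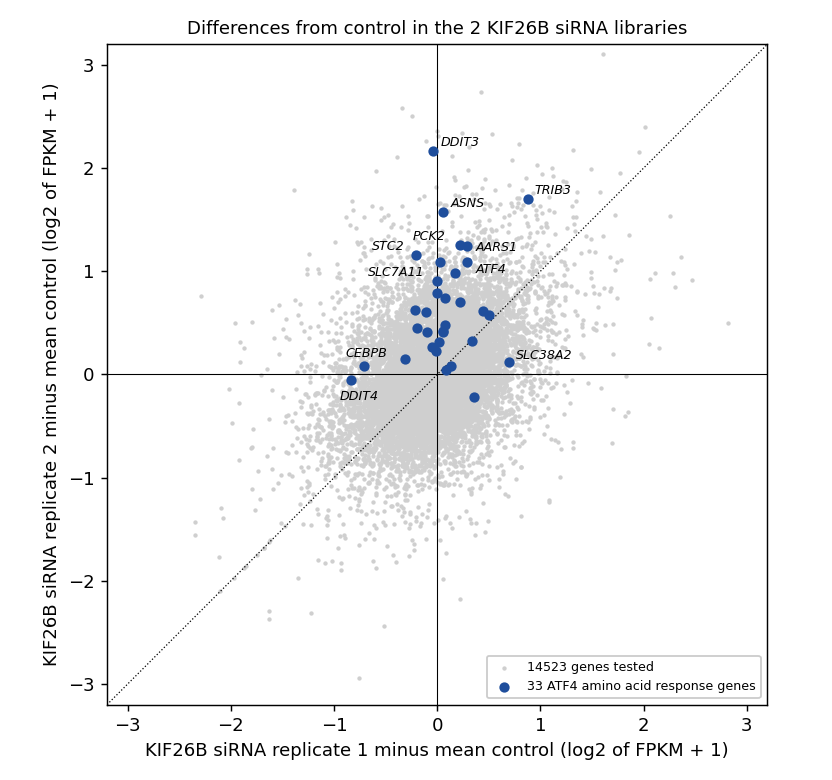
Difference from the mean control in the library labelled KIF26B siRNA replicate 1 (horizontal) and replicate 2 (vertical), in log2 of FPKM + 1, for all 14523 genes tested (grey) and the 33 ATF4 response genes (blue); the dotted line marks equal differences. The blue points lie above the dotted line for 28 of the 33 genes, DDIT4 and CEBPB lie furthest to the left, and TRIB3 and SLC38A2 furthest to the right.

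The listed genes with and without TGATGNAA in the promoter window are set side by side, with no test. The median difference in the library labelled replicate 2 was 0.51 over the 12 tested genes with the letters (0.086 to 1.57) and 0.62 over the 17 without (-0.052 to 2.17). In the library labelled replicate 1 the medians were 0.097 and -0.016. ASNS, CHAC1, AARS1 and CARS1, whose sequences were given first, differed by 0.90 to 1.57 in the library labelled replicate 2. Smaller differences were seen in SLC1A5 (0.62), SLC7A1 (0.57), CEBPG (0.45), MARS1 (0.41), NARS1 (0.33), GARS1 (0.31) and IARS1 (0.086), which also held the letters.

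For the genes upstream of ATF4, the counts are read against the same background of 7.74% higher and 8.68% lower. Of 15 genes for eIF2 kinases, eIF2, eIF2B and their phosphatase subunits, none was higher and 3 (20%) were lower at an unadjusted p below 0.05. The median difference in the library labelled replicate 2 was -0.17. Both KIF26B siRNA libraries lay below both controls for 7 of the 15 (46.7%) and above both for 3 (20%). Background shares were 27.8% and 24.9% of all genes. EIF2AK2 (PKR), the kinase that senses double-stranded RNA, was at 11.4 and 11.7 FPKM in the controls and at 9.05 and 7.22 FPKM in the libraries labelled replicates 1 and 2 (-0.47 ± 0.15, adjusted p = 0.284). PPP1R15B, the constitutive counterpart of PPP1R15A, had log2 fold change -0.42 ± 0.11 (adjusted p = 0.258), and EIF2B5, the catalytic subunit of the eIF2 exchange factor, had -0.37 ± 0.13 (adjusted p = 0.304). None of these passed adjustment over all genes.

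Among 20 further ATF4 targets and partners, 16 were tested and 2 (12.5%) were higher at an unadjusted p below 0.05, against 7.74% of all genes. PYCR1, the mitochondrial enzyme that completes proline synthesis, was at 42.6 and 44.5 FPKM in the controls and at 70.1 and 72.5 FPKM in the libraries labelled replicates 1 and 2 (0.70 ± 0.11, adjusted p = 0.242). MTHFD1L, a mitochondrial formate-producing enzyme, had 0.48 ± 0.13 (adjusted p = 0.262). Both were alike in the 2 KIF26B siRNA libraries, as SLC7A1 and SLC1A5 were. SESN2 and HERPUD1, named after their values were seen, were the only 2 of the 16 beyond 2-fold above control in the library labelled replicate 2. That is 12.5%, against 2.77% of all genes. On the log2 scale they differed by 1.26 and 1.00006, so HERPUD1 was barely past the threshold. SESN2, an inhibitor of mTORC1, was at 8.10, 7.04, 10.5 and 19.5 FPKM in the order used before. The median difference of the 16 in the library labelled replicate 2 was 0.27, smaller than that of the 33. For 7 of the 16 (43.8%) both KIF26B siRNA libraries lay above both controls, and for 1 (6.25%) below both. Background shares were 24.9% and 27.8% of all genes.

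Synthetases and folate enzymes outside the list are given for comparison, against the same 7.74% of all genes that were higher. Of 10 other cytosolic synthetases, HARS1 (0.36 ± 0.12, adjusted p = 0.283) and KARS1 (0.44 ± 0.12, adjusted p = 0.258) were higher and none was lower, and the median difference was 0.12 and 0.14 in the libraries labelled replicates 1 and 2. The library labelled replicate 2 lay above the other for 3 of these 10, against 8 of the 10 synthetases of the list. Of 17 mitochondrial synthetases, SARS2 (0.59 ± 0.12, adjusted p = 0.242) and FARS2 (0.45 ± 0.14, adjusted p = 0.276) were higher and none was lower. Among 11 tested folate, glycine and methionine cycle enzymes, MAT2A (0.77 ± 0.14, adjusted p = 0.242), AHCY (0.59 ± 0.14, adjusted p = 0.248) and the glycine cleavage protein GCSH (0.57 ± 0.13, adjusted p = 0.248) were higher. MAT2A makes S-adenosylmethionine, the methyl donor, and AHCY splits S-adenosylhomocysteine, which is left after methyl transfer. None of the genes named here passed adjustment either. For 5 of the 11 folate, glycine and methionine cycle enzymes (45.5%) both KIF26B siRNA libraries lay above both controls, and for 3 (27.3%) below both. Background shares were again 24.9% and 27.8% of all genes.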

How the data were processed

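RNA was poly(A)-selected and sequenced as 150-base read pairs from 2 control and 2 KIF26B siRNA libraries. The deposited values are FPKM, 1 file per library, whose unit was read from the values. The submitters' processing notes name HISAT2 2.0.5, featureCounts 1.5.0-p3 and hg38, whereas the study's methods name hg19. The files carry no coordinates. Symbols were matched for 56513 of 58735 gene identifiers. Whole reads were recovered for 34637 of 34638 genes above 0 by finding the gene length that gives whole reads in all libraries.

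Groups follow the labels. limma 3.58.1 (R 4.3.3) was fitted to log2(FPKM + 1) where the 4 libraries averaged 1 FPKM or more, without covariates, with Benjamini-Hochberg adjustment over all genes tested (2 residual and 2.00 prior degrees of freedom). A pseudocount of 1 understates differences of low genes. The script was tested on simulated data. Read-rate intervals are exact (Clopper-Pearson, 95%). Promoter windows are from RefSeq, and exon overlaps from a GRCh37 annotation. The alternatives tried were other pseudocounts, filters, scalings, variance models and sets of libraries.

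The members and lists were chosen with earlier results of these data known. Named genes were KIF26B, all 38 members, and up to 4 genes per further list with an unadjusted p below 0.05 and groups that do not overlap. A gene that this rule names is not reported here. The marker genes served as a check of the cells.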

Additional observations from a re-analysis of the deposited data

How the results depend on the processing

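With all 4 libraries, 301 values of single members were recomputed under other pseudocounts, filters, scalings and variance models, and 291 kept their direction and side of the unadjusted threshold. NARS1 lost its call in 3 settings, ATF4 gained one with a replicate block (limma, unadjusted p = 0.0477), 6 members gained one with limma-voom without a filter, and none changed direction. The number of members past the unadjusted threshold was 10 (10 higher) with limma-voom without a filter and 3 or 4 in the other settings, and no setting with 4 libraries gave an adjusted call among the members. The deviations of same-numbered libraries showed almost no correlation across genes (-0.0031). The control pair differed little, so this value cannot settle whether the libraries were paired, which the labels do not state. With a replicate block the count stayed at 4 of 33, though NARS1 (limma, unadjusted p = 0.115) gave way to ATF4, and the smallest adjusted p over all genes was 0.391. Scaling by total recovered reads, chosen after seeing the data as were limma-voom without a filter and the alternatives to the 2-fold count, moved the median of all genes to -0.050 and that of the members to 0.29. The 2-fold count in the library labelled replicate 2 was 7 to 10 over its alternatives, against 8.

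Leaving out 1 library gave 0 to 25 members past the unadjusted threshold (0 to 25 higher, 0 to 4 lower), 0 to 8 past the study's thresholds and 0 to 19 past the adjusted one, and a median from 0.055 to 0.57. In all, 10 members changed direction without the library labelled replicate 2, and 3 without the library labelled replicate 1. Their log2 fold changes over these fits ran from -0.037 to 2.17 (DDIT3), -0.71 to 0.082 (CEBPB), -0.20 to 0.45 (CEBPG), -0.0021 to 0.79 (PPP1R15A), -0.21 to 0.62 (PHGDH), -0.22 to 0.36 (PSPH), -0.016 to 0.23 (MTHFD2), -0.0049 to 0.90 (CHAC1), -0.098 to 0.42 (SLC7A5), -0.051 to 0.27 (SLC3A2), -0.11 to 0.60 (SARS1), -0.31 to 0.15 (WARS1) and -0.21 to 1.16 (STC2). PSPH also changed direction without control replicate 1 (-0.062). The cause was not tested. With 2 libraries a group, KIF26B at 8 to 73 reads and 5 members under the filter, small differences were not detectable.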
